A study of Mus musculus with 47 samples.

Results

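A set of 10 genes that tell slow from fast muscle fibres were followed in 47 RNA libraries of mouse muscle and fat. They were Myh7, Myh2, Myh1 and Myh4 (myosin heavy chains), Myl2 and Mylpf (regulatory light chains), and Tnni1, Tnni2, Tnnt1 and Tnnt3 (troponin subunits). They were chosen by symbol and make up 10 of the 24391 genes in each of the 2 deposited count tables. Of the 10, 4 mark slow fibres (Myh7, Myl2, Tnni1 and Tnnt1) and 6 mark fast fibres.

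The mice were C57Bl6, and tissue was taken at day 21. The 3P10 mice carried HT1080 tumours, grown from a human fibrosarcoma cell line, and were given 3P10, which binds GFRAL. GFRAL is a receptor in the hindbrain whose ligand is GDF15, a hormone that lowers appetite. The IgG1 mice carried the same tumours and received an IgG1 antibody. Both antibodies were given at 3 mg/kg each week from inoculation (day 0). The NTB mice had no tumour, and no antibody is listed for them. The tumour and the antibody therefore cannot be told apart in the comparison of IgG1 with NTB. The immune status of mice that carried a human tumour is not given in the sources used here. Gastrocnemius muscle and white fat each had 5 libraries of 3P10, 5 of IgG1 and 5 of NTB mice, and brown fat had 6 of 3P10, 5 of IgG1 and 6 of NTB. Libraries held 24.8 to 33.5 M counts in muscle, 18.6 to 80.7 M in white fat and 0.799 to 2.46 M in brown fat, where M stands for 1000000.

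Muscle contracts when myosin heavy chains pull on actin filaments, and each fibre is typed by the heavy chain it carries. Slow fibres, rich in mitochondria and used for posture, carry Myh7, while fast fibres carry Myh2 (type 2A), Myh1 (type 2X) or Myh4 (type 2B), in order of increasing speed. Troponin T anchors the troponin complex to tropomyosin, and troponin I blocks actin until calcium binds troponin C. Slow and fast fibres use separate genes for each. The mouse gastrocnemius is a mixed and mostly fast calf muscle.

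Marker levels followed the tissue labels. The summed level of 12 other skeletal muscle markers, such as Acta1 and Ckm, was 139948 to 213892 counts per 1000000 (CPM) in muscle, against 715 to 2873 in white fat and 52.4 to 5618 in brown fat. The 8 fat cell markers summed to 295 to 1667 CPM in muscle, 35281 to 50465 in white fat and 9861 to 19795 in brown fat. CPM is scaled within each tissue, and brown fat came from a kit that reads transcript 3′ ends, so levels across tissues are only set side by side.

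The heavy chain genes are shown first by sequence, since their balance is the measure of fibre type used below. Of the 10 genes, 8 matched an entry in the RefSeq promoter table for GRCm38.p6, a later build than the mm9 used for counting. The stretches below run from 250 bases before to 50 bases after the start of each gene, 300 bases in all, and for Myh7, which has more than 1 entry, the outermost start is shown. Myh7 lies at chr14:54994577-54994876 on the minus strand, and the fast genes lie on the plus strand at chr11:67170777-67171076 for Myh2, chr11:67199852-67200151 for Myh1 and chr11:67237562-67237861 for Myh4. Capitals mark an E-box (CANNTG, bound by MyoD-family factors), a TATA box (TATAAA) or a MEF2 element, each searched on both strands.
Myh7: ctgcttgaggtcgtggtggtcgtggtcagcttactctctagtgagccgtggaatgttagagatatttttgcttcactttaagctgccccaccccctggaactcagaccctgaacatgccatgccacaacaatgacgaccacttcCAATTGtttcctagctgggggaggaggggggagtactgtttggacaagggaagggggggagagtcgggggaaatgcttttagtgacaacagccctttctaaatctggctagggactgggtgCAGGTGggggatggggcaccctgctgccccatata
Myh2: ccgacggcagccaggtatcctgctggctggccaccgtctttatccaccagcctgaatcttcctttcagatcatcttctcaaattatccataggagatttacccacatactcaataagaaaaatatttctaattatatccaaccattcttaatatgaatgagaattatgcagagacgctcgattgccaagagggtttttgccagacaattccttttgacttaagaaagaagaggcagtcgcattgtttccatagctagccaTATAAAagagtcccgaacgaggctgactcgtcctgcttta
Myh1: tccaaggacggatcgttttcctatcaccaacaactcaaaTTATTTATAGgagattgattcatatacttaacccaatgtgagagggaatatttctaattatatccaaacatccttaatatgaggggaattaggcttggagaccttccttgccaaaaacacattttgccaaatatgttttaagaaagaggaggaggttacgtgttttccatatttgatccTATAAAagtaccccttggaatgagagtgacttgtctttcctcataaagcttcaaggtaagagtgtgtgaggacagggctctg
Myh4: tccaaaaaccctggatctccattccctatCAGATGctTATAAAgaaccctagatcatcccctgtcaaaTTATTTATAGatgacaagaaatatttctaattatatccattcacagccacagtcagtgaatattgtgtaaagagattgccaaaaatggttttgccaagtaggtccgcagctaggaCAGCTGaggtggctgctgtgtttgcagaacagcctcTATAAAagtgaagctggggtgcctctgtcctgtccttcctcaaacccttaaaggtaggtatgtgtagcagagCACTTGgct
The Myh4 window held 3 E-boxes, 3 TATA matches and 1 MEF2 match. The Myh1 window held 0 E-boxes, 2 TATA matches and 1 MEF2 match. In both, 1 TATA match lies inside the MEF2 match on the other strand. The Myh2 window held 1 TATA match alone, and the Myh7 window held 2 E-boxes alone. Of all 32851 RefSeq promoter windows of the same length, 72.3% held an E-box, 13.6% a TATA match and 3.19% a MEF2 match. These matches describe letters in a window and were not tied to any level measured here.

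In muscle, Myh4 was by far the most abundant heavy chain. Per kilobase of its longest coding transcript, the mean level over all 15 muscle libraries was 13176 ± 2588 CPM for Myh4, 568 ± 183 for Myh1, 400 ± 178 for Myh2 and 193 ± 72.0 for Myh7 (SD). The ranges of Myh1 and Myh2 overlapped over the libraries, and so did those of Myh2 and Myh7, while Myh4 lay above the other 3 in every library. The fast light chain and troponins, again as CPM per kilobase, averaged 22323 ± 11823 for Mylpf, 24440 ± 12170 for Tnni2 and 26800 ± 10935 for Tnnt3, and these 3 overlapped. Their slow counterparts averaged 275 ± 102 for Myl2, 87.6 ± 26.4 for Tnni1 and 411 ± 157 for Tnnt1. Every fast member of those 3 pairs lay above its slow partner in all 15 muscle libraries.

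As a share of the reads on the 4 heavy chain genes, Myh4 took 87.1 to 97.2% in muscle (median 90.2). Myh1 took 1.53 to 6.27%, Myh2 0.748 to 5.19% and Myh7 0.546 to 2.16%. The exact 95% binomial interval of these shares reached at most 0.0452 percentage points either way, which covers counting error only. Reads that the near-identical Myh1, Myh2 and Myh4, or Myh7 and its cardiac neighbour Myh6, could share may have been assigned unevenly, so each single level is uncertain to that extent.

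**Figure D1:**
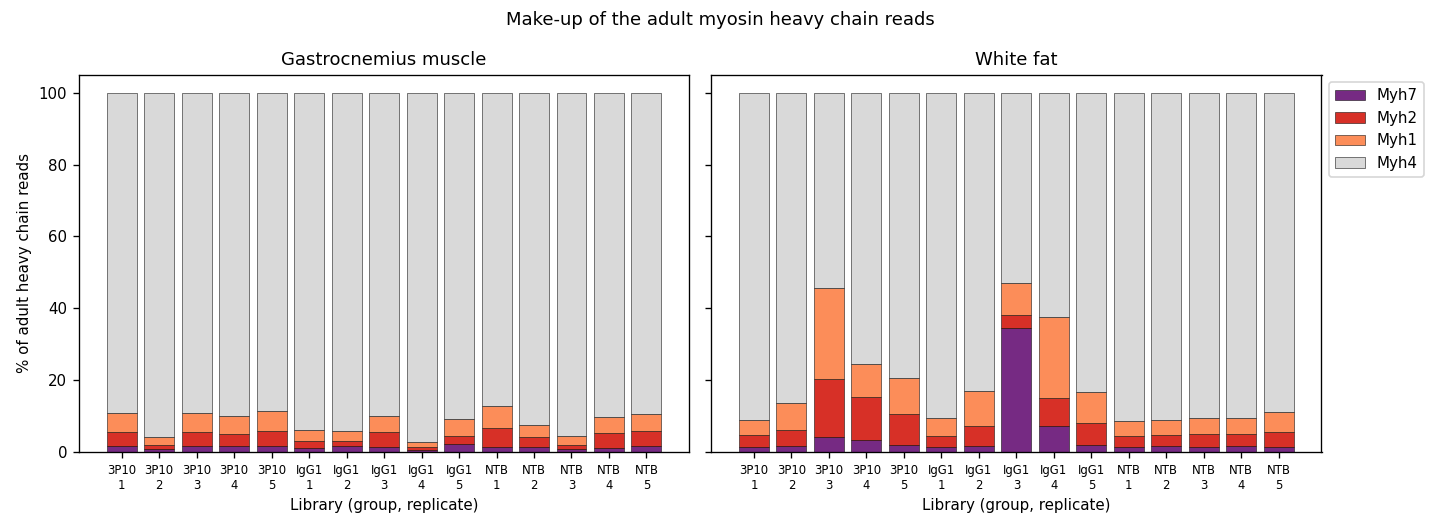
Share (%) of the reads on Myh7, Myh2, Myh1 and Myh4 taken by each gene, with 1 bar per library, in gastrocnemius muscle (left) and white fat (right), grouped as 3P10, IgG1 and NTB. Myh4 took 87.1 to 97.2% in muscle, while in white fat its share was 54.3% in 3P10 library 3 and 52.8% in IgG1 library 3.

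None of the 10 genes passed the test in muscle, in any of the 3 comparisons. By edgeR's quasi-likelihood test with Benjamini-Hochberg adjustment over all genes, 0 of 10 were called in IgG1 against NTB at an adjusted p under 0.05, where 5.6% of all 13283 tested genes were called. The same test gave 0 of 10 at an unadjusted p under 0.05, beside 20.8% of all genes, and DESeq2 called 0 of 10, beside 9.98%. In 3P10 against IgG1, 0 of 10 were called (0 unadjusted, 0 by DESeq2). Over all genes 0.211% were called, 10.8% passed unadjusted and 2.14% were called by DESeq2. In 3P10 against NTB, 0 of 10 were called (0 unadjusted, 0 by DESeq2), where the shares of all genes were 0%, 4.24% and 0.113%. Nor were the groups apart for any member in these comparisons, where 6.38%, 2.45% and 1.53% of all genes had groups that did not overlap. The labels do not say that libraries came from separate animals, so p-values measure the spread between these samples. In bulk RNA, fewer fibres of a type and less RNA per fibre cannot be told apart.

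Myh7, the slow heavy chain, had 1269, 865, 1860, 1100 and 1176 CPM in 3P10 muscle, against 776, 1948, 1211, 476 and 2015 in IgG1 muscle and 946, 1253, 845, 907 and 1415 in NTB muscle. The IgG1 libraries held both the lowest and the highest values, and all groups overlapped. The log2 fold change was 0.26 (SE 0.33, adjusted p = 0.716) for IgG1 against NTB by edgeR, and -0.036 (SE 0.33, adjusted p = 0.988) for 3P10 against IgG1. Its 95% interval in IgG1 against NTB ran from -0.44 to 0.96.

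Myh2, the heavy chain of type 2A fibres, had 3184, 1087, 4212, 2408 and 2858 CPM in 3P10 muscle, against 1180, 1598, 3435, 653 and 2014 in IgG1 muscle and 3535, 2447, 1269, 3037 and 3545 in NTB muscle. 4 of the 5 IgG1 values lay under the NTB mean of 2766, and the groups overlapped. Its log2 fold change was -0.64 (SE 0.41, adjusted p = 0.406 by edgeR) in IgG1 against NTB and 0.63 (SE 0.41, adjusted p = 0.640) in 3P10 against IgG1. These comparisons share the IgG1 libraries. Over the alternative fits other than leaving out 1 library, these folds ran from -0.80 to -0.39 and from 0.36 to 0.65. The 4 libraries set apart below by title number, 3P10 2, IgG1 2, IgG1 4 and NTB 3, had 1087, 1598, 653 and 1269 CPM. They are spread unevenly over the groups, and their part in these folds was not tested. Of the 10 genes Myh2 varied most between muscle libraries, with 6.45-fold between its highest and lowest.

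Myh1, the heavy chain of type 2X fibres, averaged 3958 ± 1209 CPM in 3P10 muscle, 2958 ± 1303 in IgG1 muscle and 3437 ± 739 in NTB muscle (SD, n = 5 each). Its log2 fold change was -0.22 (SE 0.30) in IgG1 against NTB and 0.42 (SE 0.30) in 3P10 against IgG1, neither called. Myh4, the type 2B heavy chain, varied least of the 10, with 1.79-fold between its highest and lowest muscle library. It had 70385, 96393, 95715, 64664 and 62598 CPM in 3P10 muscle, against 60728, 106428, 75541, 84783 and 84780 in IgG1 muscle and 59338, 81506, 102329, 66386 and 77456 in NTB muscle. The 3 groups covered almost the same range. Its log2 fold change was 0.091 (SE 0.21) in IgG1 against NTB, with a 95% interval of -0.35 to 0.53.

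Mylpf, the fast regulatory light chain, had 13966, 30009, 13481, 14221 and 11864 CPM in 3P10 muscle, against 11696, 22658, 8520, 17335 and 9765 in IgG1 muscle and 13420, 16043, 43760, 15008 and 14738 in NTB muscle. 1 or 2 libraries in each group lay well above the rest. The log2 fold change was -0.56 (SE 0.38, adjusted p = 0.437 by edgeR) in IgG1 against NTB and 0.26 (SE 0.37, adjusted p = 0.893) in 3P10 against IgG1. Myl2, the slow regulatory light chain, averaged 246 ± 46.5 CPM in 3P10 muscle, 269 ± 141 in IgG1 muscle and 217 ± 68.7 in NTB muscle (SD, n = 5 each), and its folds were 0.31 (SE 0.29) in IgG1 against NTB and -0.13 (SE 0.29) in 3P10 against IgG1 on the log2 scale.

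Tnni1, slow troponin I, averaged 111 ± 34.2 CPM in 3P10 muscle, 105 ± 37.9 in IgG1 muscle and 86.0 ± 14.1 in NTB muscle (SD, n = 5 each). Tnnt1, slow troponin T, averaged 458 ± 110 CPM in 3P10 muscle, 451 ± 266 in IgG1 muscle and 395 ± 102 in NTB muscle. Both overlapped between groups. The fast partners had 1 or 2 high libraries in each group, as Mylpf did. Tnni2, fast troponin I, had 15503, 34330, 15320, 12522 and 14930 CPM in 3P10 muscle, against 10962, 29497, 13762, 21826 and 13557 in IgG1 muscle and 13443, 14667, 42838, 13700 and 14691 in NTB muscle. Tnnt3, fast troponin T, had 22496, 45718, 25261, 23306 and 25263 CPM in 3P10 muscle, against 15720, 49521, 23350, 35767 and 22399 in IgG1 muscle and 21641, 24024, 54975, 21458 and 22856 in NTB muscle. Across the 4 troponin genes, log2 fold changes in IgG1 against NTB ran from -0.15 for Tnni2 to 0.29 for Tnni1.

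**Figure D2:**
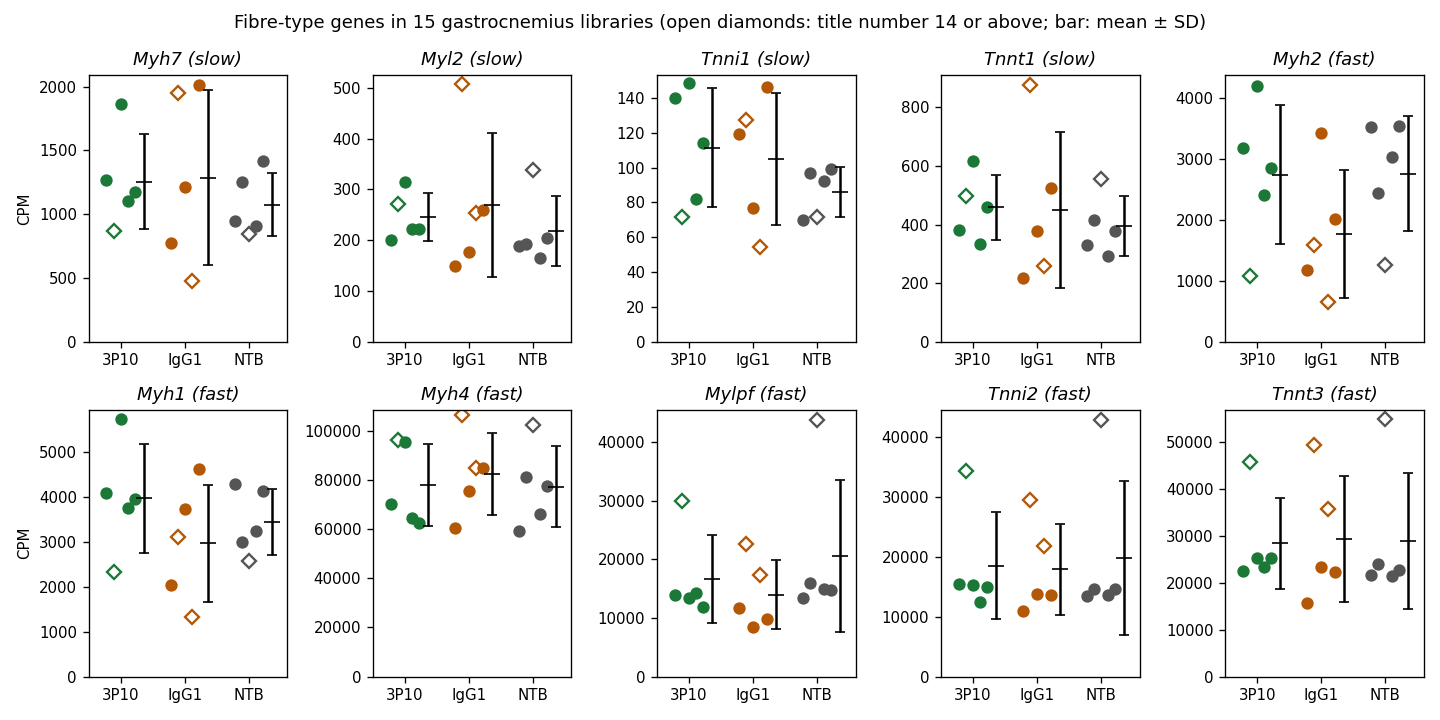
CPM (axes from 0) of the 10 genes in 15 gastrocnemius libraries, grouped as 3P10, IgG1 and NTB, with mean ± SD beside each group. Open diamonds are the 4 libraries whose bracketed title number is 14 or above, which lie above all others for Mylpf, Tnni2 and Tnnt3.

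The high libraries were the same ones each time: 3P10 2, IgG1 2, IgG1 4 and NTB 3. They are the 4 muscle libraries whose titles carry a bracketed number of 14 or above, and what that number records is not given. They stood apart from the other 11 for 3 of the 10 genes. Tnni2 was 21826 to 42838 CPM in the 4, against 10962 to 15503 in the 11, and Mylpf was 17335 to 43760 against 8520 to 16043. Tnnt3 was 35767 to 54975 CPM in the 4, against 15720 to 25263 in the 11. Of all tested genes 13.2% lay wholly above and 11.9% wholly below in the same split, so a separation of this kind was common.

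Of 7 measures of fibre balance, 4 separated the libraries in the same way and 3 overlapped. The measures are not independent. The heavy chain shares are parts of the same total, and Tnni2, the base of the Tnni1 measure, itself lay wholly above in the 4. Myh4 took 94.1 to 97.2% of heavy chain reads in the 4, against 87.1 to 93.8% in the 11. Myh2 took 0.748 to 1.41% in the 4, against 1.82 to 5.19%, and Myh1 took 1.53 to 2.74%, against 3.15 to 6.27%. For each 100 Tnni2 reads there were 0.167 to 0.431 Tnni1 reads in the 4, against 0.522 to 1.09 in the 11. The overlapping measures were the Myh7 share (0.546 to 1.72% in the 4, against 1.20 to 2.16% in the 11), Myl2 per 100 Mylpf reads (0.771 to 2.24, against 1.09 to 2.67) and Tnnt1 per 100 Tnnt3 reads (0.726 to 1.77, against 1.37 to 2.45). Other genes moved with the split, where 13.2% of all tested genes lay wholly above and 11.9% wholly below. Among fast-fibre partners Tnnc2 (fast troponin C), Ampd1 (an AMP deaminase) and Tmod4 (a tropomodulin) lay wholly above, 3 of 14. Slow-fibre partners gave 0 of 15 either way. Of 16 shared sarcomere genes, 2 lay above (Des and Tcap) and 2 below (Mybpc1 and Xirp2). Of 9 developmental or cardiac genes, 1 lay above (Tnnt2) and 1 below (Myh3). Of 31 regulators of fibre type, 7 lay wholly below, including Mef2a, Mef2c, Mef2d and Esrrg, and 1, Maf, lay wholly above. Summed endothelial markers, 5 genes, were 66.9 to 91.5 CPM in the 4, against 110 to 230 in the 11. Summed smooth muscle markers, 4 genes, were 35.8 to 42.7 CPM, against 60.7 to 108. Skeletal muscle markers summed to 170020 to 213892 CPM, against 139948 to 186760. The part of these in the muscle results was not tested.

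A term for the split changed the calls of 1 member, and it also turned the sign of some folds near 0, listed below. Mylpf then fell by 0.73 on the log2 scale (SE 0.14, adjusted p = 0.00209 by edgeR) in IgG1 against NTB. It was higher by 0.49 (SE 0.14, adjusted p = 0.0478) when 3P10 was set against IgG1. The same fit called 18.5% and 5.03% of all genes in those comparisons, against 5.6% and 0.211% without the term. In 3P10 against NTB it called 0 of 10 members and 0.0376% of all genes. With the 4 libraries left out, 6.52% and 0.134% of all genes were called, and Mylpf had -0.57 (SE 0.14, adjusted p = 0.0261) in IgG1 against NTB and 0.42 (SE 0.13, adjusted p = 0.193) in 3P10 against IgG1. In the 11 libraries alone, Mylpf was 11864 to 14221 CPM in the 4 3P10 libraries, against 8520 to 11696 in the 3 IgG1 and 13420 to 16043 in the 4 NTB libraries. The IgG1 values there lay below all others, and the share of all genes that separate this way in those 11 libraries was not counted. Mylpf itself lay wholly above in the 4 libraries left out, and the split was chosen with earlier results of these data known. The other 9 members were not called with the term or without the 4 libraries.

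**Figure D3:**
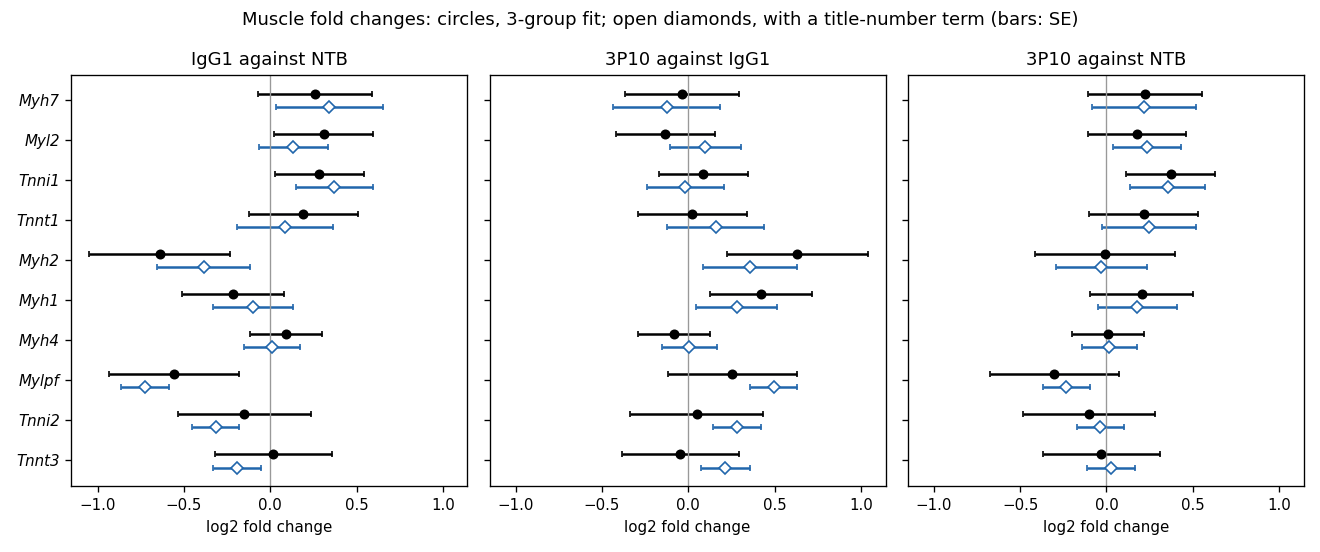
Log2 fold changes in muscle for the 10 genes in the 3 comparisons, with SE bars. Circles come from the 3-group fit and open diamonds from the fit with a term for the title number; the Mylpf diamonds, at -0.73 for IgG1 against NTB and 0.49 for 3P10 against IgG1, are the called ones.

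Other genes of the contractile apparatus were counted in muscle, in lists that overlap with none of the 10. Of 14 fast-fibre partners 1 rose and 2 fell in IgG1 against NTB, with 9 at an unadjusted p under 0.05, beside 5.6% called and 20.8% unadjusted over all tested genes. Their median log2 fold change was -0.19, beside 0.012 over all tested genes. Casq1, the calcium store protein of fast fibres, had 2475, 2540, 2162, 2269 and 2439 CPM in IgG1 muscle, against 3838, 4851, 6011, 4309 and 4502 in NTB muscle. No IgG1 value reached the NTB range, and the log2 fold change was -0.98 (SE 0.16, adjusted p = 0.00326 by edgeR). In 3P10 muscle it had 3672, 5145, 4511, 3396 and 3252 CPM, with 0.75 (SE 0.16, adjusted p = 0.0703) against IgG1. DESeq2 called it in that comparison (0.76, adjusted p = 0.000183), as did edgeR with the title-number term (0.79, adjusted p = 0.00367). Myoz3, a Z-disc protein of fast fibres, fell by 1.44 on the log2 scale in IgG1 against NTB (SE 0.27, adjusted p = 0.00595). It had 258, 86.6, 124, 78.8 and 129 CPM in IgG1 muscle, against 365, 424, 286, 413 and 348 in NTB muscle, and the groups did not overlap. In 3P10 against IgG1 its log2 fold change was 1.09 (SE 0.26, adjusted p = 0.0973), called by DESeq2 (adjusted p = 0.00486) and with the term (adjusted p = 0.00649). Mylk2, the kinase of the regulatory light chains, rose by 0.89 (SE 0.16, adjusted p = 0.00597), with 1305, 1692, 1391, 1652 and 1425 CPM in IgG1 muscle, against 529, 806, 907, 781 and 1014 in NTB muscle.

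Slow-fibre partners gave 0 of 15 called in IgG1 against NTB (2 unadjusted), shared sarcomere genes 0 of 16 (2 unadjusted) and developmental or cardiac genes 0 of the 6 tested of 9 (2 unadjusted), all by edgeR. DESeq2 called 7 of the 14 fast partners in that comparison, 0 slow partners, 0 shared genes and 1 developmental or cardiac gene (Actc1), beside 9.98% of all genes. Of 31 fibre-type regulators, Hdac5, a histone deacetylase that holds back MEF2, rose by 0.54 (SE 0.12, adjusted p = 0.0195). It had 117, 92.4, 88.4, 109 and 88.6 CPM in IgG1 muscle, against 62.9, 65.1, 78.1, 67.8 and 67.4 in NTB muscle. Hdac5 was the single regulator that DESeq2 called too, and under the replicate block its adjusted p was 0.0522. No list held a called gene in 3P10 against IgG1 or in 3P10 against NTB by edgeR. Unadjusted counts were 6 of 14 fast partners and 4 of 31 regulators in 3P10 against IgG1, and 1 of 14 and 0 of 31 in 3P10 against NTB, where 10.8% and 4.24% of all genes passed unadjusted. DESeq2 called 2 fast partners (Casq1 and Myoz3) and 1 regulator (Hdac5) in 3P10 against IgG1, beside 2.14% of all genes, and no list gene in 3P10 against NTB. Satellite cell markers, 4 genes including Pax7, summed to 25.6 to 34.3 CPM in 3P10 muscle, 37.5 to 53.5 in IgG1 and 24.2 to 33.8 in NTB. Tendon markers, 7 genes, summed to 28.5 to 71.8 CPM in 3P10, 19.3 to 54.9 in IgG1 and 62.5 to 103 in NTB. Their part in these results was not tested.

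The genes most like 3 of the heavy chains were ranked by the root-mean-square difference of centred log2 CPM over the 15 muscle libraries, among 11660 genes. Nearest to Myh7 were Tpm3 (0.18 log2), a slow tropomyosin, and Myh6 (0.19), then Myl10, Lgi1 and Myh1. Nearest to Myh2 were P3h2 (0.25), Esrrg, Myom3, Esrrb and Rab15. Nearest to Myh4, which itself varied little, were Trip10 (0.13), Rbm10, Kat5, Acin1 and Ruvbl1.

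These sarcomere genes are characteristic of muscle, and each white fat library held reads of all 10. As a percentage of the mean of the 15 muscle libraries, on CPM scaled by library total alone, the 10 genes stood at 0.515 to 10.5% in 3P10 white fat, 0.225 to 25.1% in IgG1 white fat and 0.397 to 2.15% in NTB white fat. Summed over the 10, levels were 963 to 2398 CPM in 3P10 white fat (median 1369), against 686 to 1648 in IgG1 (median 1221) and 944 to 1390 in NTB (median 1077). In NTB white fat Myh7 took 1.48 to 1.62% of heavy chain reads, beside 0.546 to 2.16% in muscle. Tnnt1 stood higher against Tnnt3 than in any muscle library, at 2.598 to 4.47 reads per 100 in NTB white fat, beside 0.726 to 2.45 in muscle.

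Several tumour-bearing libraries lay above the NTB range for some of the 10 genes, and the sets of genes overlapped between libraries. IgG1 library 3 was highest of the 15 for all 4 slow members. It stood at 25.1% of the muscle mean for Myh7, 21.7% for Tnni1, 16.4% for Tnnt1 and 15.03% for Myl2, but at 0.492 to 2.27% for the 6 fast members. Myh7 took 34.5% of its heavy chain reads (exact 95% interval 33.97 to 35.1). 3P10 library 3 was second to it for the 4 slow members, at 10.5% for Tnnt1, 8.58% for Tnni1, 4.89% for Myl2 and 3.95% for Myh7. The same 3P10 library was highest for Myh1 (8.12%) and Myh2 (7.18%), the type 2X and 2A chains. 3P10 library 4 had Tnnt1 at 4.596%, Myh2 at 3.56% and Tnni1 at 3.33%, and IgG1 library 4 had Tnnt1 at 4.82% and Myh1 at 2.55%. The highest NTB values were 2.15% for Tnnt1, 1.25% for Myh2, 1.15% for Myh1 and 1.05% for Tnni1. 3P10 library 2 was highest for Myh4, Mylpf, Tnni2 and Tnnt3, at 1.59, 1.45, 1.56 and 1.74%. In white fat, too, 3P10 2, IgG1 2, IgG1 4 and NTB 3 are the 4 libraries with a title number of 14 or above.

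Genes outside the 10 were often highest in the same libraries. 13 of 14 fast-fibre partners were highest in 3P10 library 2 and the remaining 1, Casq1, in 3P10 library 3. 8 of 15 slow-fibre partners, among them Tnnc1 (slow troponin C), Myl3 and Atp2a2, were highest in IgG1 library 3, 4 (Tpm3, Ankrd2, Csrp3 and Fhl1) in 3P10 library 3, and 1 each in IgG1 library 2, NTB library 1 and NTB library 3. The 16 shared sarcomere genes were spread over more libraries, with 5 highest in 3P10 library 3, 4 in 3P10 library 2, 3 (Des, Tpm1 and Tpm2) in NTB library 1, 2 in IgG1 library 3 and 1 each in 3P10 library 4 and NTB library 3. The 12 skeletal muscle markers include Tnnc2, Myl1, Atp2a1, Actn3 and Mybpc2, which are also fast-fibre partners. Their sum is thus not independent of that list and does not measure slow muscle apart. It stood at 1.69% of muscle in 3P10 library 2, 1.37% in 3P10 library 3 and 0.857% in IgG1 library 3. The 9 IgG1 and NTB libraries other than IgG1 library 3 had 0.385 to 1.01%.

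**Figure D4:**
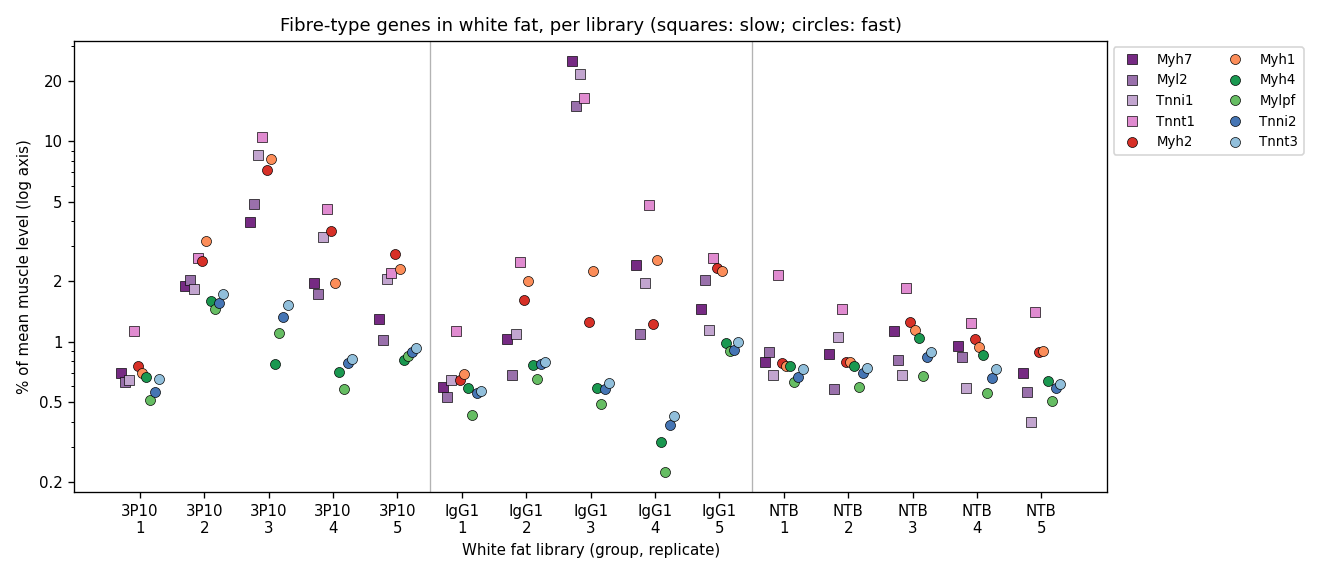
Level of each of the 10 genes in the 15 white fat libraries as a percentage of the mean of the 15 muscle libraries (log axis), grouped as 3P10, IgG1 and NTB; squares are slow genes and circles fast genes. IgG1 library 3 has the 4 slow genes at 15.03 to 25.1%, while the NTB libraries hold all genes at 0.397 to 2.15%.

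In white fat, 0 of 10 genes were called in IgG1 against NTB by edgeR, where 8.64% of 14402 tested genes were called, with 5 at an unadjusted p under 0.05 (29.1% of all genes) and 5 called by DESeq2 (17.7% of all genes). In 3P10 against IgG1 it was 0 of 10, with 3 unadjusted and 1 by DESeq2, where the shares of all genes were 7.42%, 28.1% and 15.8%. In that comparison the counts of members lay near the shares of all genes. In 3P10 against NTB it was 0 of 10, with 6 unadjusted and 2 by DESeq2, where the shares of all genes were 0%, 3.76% and 0.132%. Groups overlapped for all 10 in the 3 comparisons, where 8.85%, 5.65% and 0.847% of all genes did not overlap.

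Myh7 had 8.49, 22.3, 45.2, 23.8 and 15.5 CPM in 3P10 white fat, against 7.89, 12.7, 288, 30.8 and 18.8 in IgG1 white fat and 8.85, 10.4, 13.3, 11.7 and 8.51 in NTB white fat. Library 1 of both tumour groups lay below the lowest NTB value. For IgG1 set against NTB it gave a log2 value of 2.76 (SE 0.83, adjusted p = 0.0506 by edgeR), and 0.76 (SE 0.36, adjusted p = 0.150) without IgG1 library 3 and 3P10 library 3. Tnni1 had 0.658, 1.80, 8.26, 3.38 and 2.07 CPM in 3P10 white fat, against 0.717, 1.12, 20.9, 2.11 and 1.25 in IgG1 white fat and 0.640, 1.05, 0.677, 0.603 and 0.408 in NTB white fat. On the same scale Tnni1 stood at 2.94 (SE 0.92, adjusted p = 0.0562) for IgG1 against NTB with all libraries and 0.98 (SE 0.45, adjusted p = 0.144) without those 2.

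Myh2 had 19.1, 61.4, 170, 88.9 and 67.8 CPM in 3P10 white fat, against 17.7, 40.7, 29.7, 32.4 and 62.8 in IgG1 white fat and 18.2, 19.6, 30.3, 26.1 and 22.4 in NTB white fat. 4 of 5 3P10 libraries lay above every NTB library. The log2 fold change in 3P10 against NTB was 1.80 (SE 0.43, unadjusted p = 0.000784, adjusted p = 0.664 by edgeR). Myh1 had 24.7, 108, 270, 68.5 and 80.4 CPM in 3P10 white fat, against 26.7, 71.1, 75.5, 94.7 and 84.7 in IgG1 white fat and 24.7, 27.5, 39.1, 33.3 and 31.8 in NTB white fat. Its difference between IgG1 and NTB was 1.18 on the log2 scale (SE 0.46, adjusted p = 0.112 by edgeR), and 1.17 (SE 0.38, adjusted p = 0.0492) without IgG1 library 3 and 3P10 library 3. Leaving out those libraries was chosen after seeing these data. It called 16.2% of all genes, beside 8.64% with all libraries. In both tumour groups 4 of 5 libraries lay above every NTB value for Myh1.

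In 3P10 against NTB the 4 most abundant fast genes had the smallest folds of the 10. Myh4 had 530, 1210, 577, 556 and 631 CPM in 3P10 white fat, against 507, 608, 440, 262 and 830 in IgG1 white fat and 545, 585, 798, 684 and 506 in NTB white fat. Its log2 fold change was -0.24 (SE 0.28) in IgG1 against NTB and 0.17 (SE 0.28) in 3P10 against NTB. Mylpf, Tnni2 and Tnnt3 had folds of -0.048 to -0.024 in IgG1 against NTB and 0.57 to 0.61 in 3P10 against NTB on the log2 scale, with 4 of 5 3P10 libraries above the NTB mean for each. Unadjusted p in 3P10 against NTB was 0.0712 for Mylpf, 0.0382 for Tnni2 and 0.0311 for Tnnt3, none called by edgeR. In 3P10 against IgG1 these 3 had 0.65 (SE 0.31), 0.59 (SE 0.25) and 0.64 (SE 0.26), and Tnni2 and Tnnt3 were 2 of the 3 members at an unadjusted p under 0.05 there. IgG1 library 4, the deepest at 80.7 M counts, was lowest for Myh4, Mylpf, Tnni2 and Tnnt3. It held 282 CPM of Krt14, a skin keratin, where the other 14 white fat libraries had at most 0.818. Summed keratinocyte markers, 4 genes, were 758 CPM in IgG1 library 4 and 31.1 in IgG1 library 2, and at most 4.37 in the remaining white fat libraries. The part of muscle or skin carried with the fat in these results was not tested.

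In brown fat the 10 genes were low and uneven, and counts were small. Their summed level had a lowest value of 1.64, a median of 342 and a highest of 1298 CPM in 3P10 brown fat. It was 1007, 1197, 325, 123 and 253 CPM in the 5 IgG1 libraries. In NTB brown fat the lowest was 411, the median 655 and the highest 1529. The groups overlapped throughout. 3P10 library 2 held 2 reads in all, 1 each of Myh1 and Tnnt1, with 8 of 10 genes at 0, where a count of 0 allows up to 2.46 CPM. Its 12 muscle markers summed to 52.4 CPM, the lowest of the 17, beside 297 to 5618 in the others.

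Myh4 had a lowest of 0, a median of 159 and a highest of 457 CPM in 3P10 brown fat, against 434, 645, 152, 56.3 and 137 in IgG1 brown fat and a lowest of 196, a median of 296 and a highest of 706 in NTB brown fat. No gene was called: 0 of the 9 tested in each comparison by edgeR, with 0 at an unadjusted p under 0.05 and 0 by DESeq2. Of all 8711 tested genes, edgeR called 2.97% in IgG1 against NTB, 11.6% in 3P10 against IgG1 and 5.75% in 3P10 against NTB. Unadjusted shares were 17.7%, 26.7% and 22%, and DESeq2 called 3.82%, 11.3% and 6.74%. Tnni1 had too few counts to be tested. Groups overlapped for all 10, where 2.54%, 6.29% and 3.01% of all genes did not overlap. The log2 fold changes in IgG1 against NTB ran from -1.02 to -0.29, with SE from 0.54 to 0.87. Those in 3P10 against NTB ran from -1.003 to -0.40. Title numbers in brown fat run group by group, so their order and the groups cannot be told apart.

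**Figure D5:**
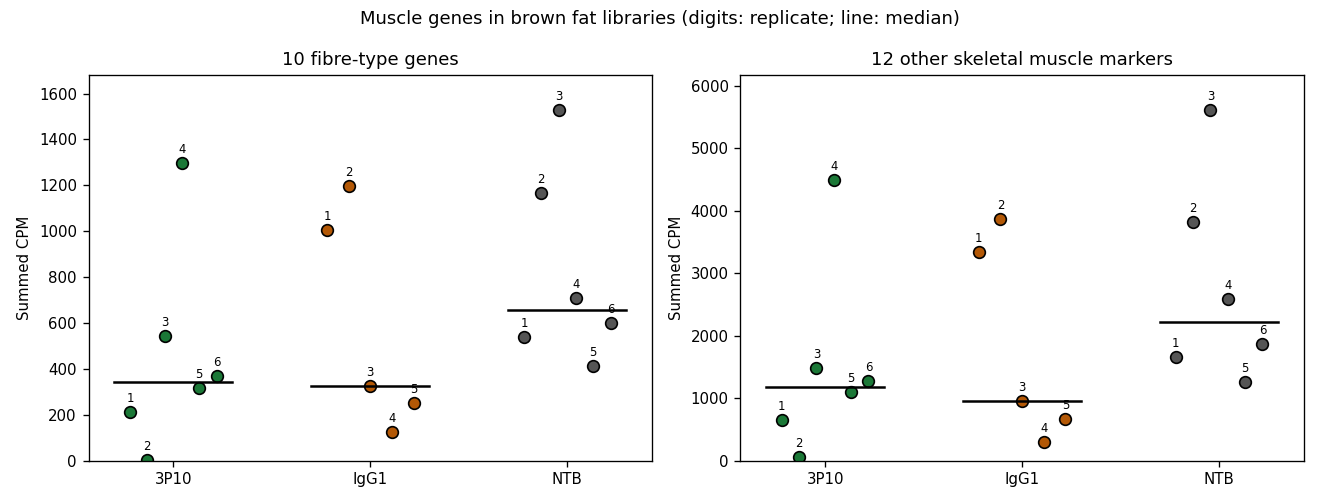
Summed CPM of the 10 fibre-type genes (left) and of 12 other skeletal muscle markers (right) in 17 brown fat libraries, grouped as 3P10, IgG1 and NTB; digits are replicate numbers and lines are medians. The same libraries are high or low in both panels, and 3P10 library 2 lies at 1.64 and 52.4 CPM.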

How the data were processed

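RNA from flash-frozen tissue was sequenced, and the authors deposited counts per gene symbol for 24391 genes, 1 column per library, in 1 table for brown fat and 1 for white fat with muscle. Per the labels' protocols, brown fat libraries used a 3′ kit with molecular identifiers, and the other tissues a directional kit. Per the submitters' processing notes, reads were handled with Trim Galore, STAR 2.6.0a, featureCounts 1.6.2, edgeR 3.22.3 and mm9. The annotation, the strand setting and any collapsing of identifiers are not given in the sources used here, so reads of antisense or overlapping genes may be mixed.

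Each tissue was fitted with its 3 groups in 1 quasi-likelihood model in edgeR 4.0.16 (R 4.3.3) using TMM factors, on genes kept by filterByExpr (count of at least 10, total of at least 15). Every test was 2-sided. Calls needed a p under 0.05 after Benjamini-Hochberg adjustment over every tested gene of that tissue. CPM is per TMM-scaled library. Percentages of muscle use CPM per library total, since the tables were not normalized together. DESeq2 1.42.0, RLE factors, other filters, 2-group fits, a replicate block, a title-number term, and left-out libraries were the alternatives. The script was tested on simulated data. A count of 0 was read as up to 3 counts, for counting error only. Named genes were the 10, up to 4 called genes of each list, and the 5 genes most like Myh7, Myh2 and Myh4, with a mean of at least 1 CPM and a pseudocount of 0.5. The genes, lists and title-number split were chosen with earlier results of these data known.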

Additional observations from a re-analysis of the deposited data

Results flagged for a closer look

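Of 90 groups of 5 or 6 libraries, 21 had a highest or lowest library far from the next by Dixon's criterion. Chance gives about 1 in 20 if values are normally distributed, which was not tested for these CPM. The 90 are not independent, since the genes come from the same libraries.

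In muscle there were 7, all high libraries of the title-number split. 3P10 library 2 had 30009 CPM of Mylpf, 34330 of Tnni2 and 45718 of Tnnt3, where the next highest 3P10 libraries had 14221, 15503 and 25263. NTB library 3 had 43760 CPM of Mylpf, 42838 of Tnni2, 54975 of Tnnt3 and 338 of Myl2, where the next highest NTB libraries had 16043, 14691, 24024 and 204.

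In white fat there were 5. IgG1 library 3 had 288 CPM of Myh7, 20.9 of Tnni1, 66.6 of Tnnt1 and 34.1 of Myl2, where the next highest IgG1 libraries had 30.8, 2.11, 21.8 and 5.19. 3P10 library 2 had 1210 CPM of Myh4, where the next had 631.

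In brown fat there were 9. 3P10 library 4 had 48.0 CPM of Myh7, 87.3 of Myh2, 121 of Myh1, 37.4 of Myl2, 16.3 of Tnni1, 77.7 of Tnnt1 and 160 of Tnnt3, and its 12 muscle markers summed to 4490 CPM, the highest of the 3P10 libraries. NTB library 3 had 68.7 CPM of Myh2, where the next had 37.0. NTB library 5 had 0 CPM of Tnni1, where the next lowest had 6.01 and a count of 0 allows up to 2.48.

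Tnni1 was not called in white fat IgG1 against NTB by edgeR with all libraries (adjusted p = 0.0562). DESeq2 called it there (adjusted p = 0.00364), as did edgeR without IgG1 library 1 or without 3P10 library 3. Its IgG1 libraries lay on opposite sides of the NTB mean in white and brown fat. All 5 lay above it in white fat, with a log2 fold change of 2.94 (0.98 without IgG1 library 3 and 3P10 library 3). All 5 lay below it in brown fat, where Tnni1 had too few counts to be tested, with 3, 5, 0, 0 and 0 counts in the IgG1 libraries, and averaged 1.58 CPM in IgG1 and 5.94 in NTB. The difference between depots was not tested.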

How the results depend on the processing

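Members called numbered 0 in each of the 9 comparisons, and the count moved only in these settings. In muscle it was 1 (Mylpf) in IgG1 against NTB with the title-number term and with the 4 libraries left out, and 1 (Mylpf) in 3P10 against IgG1 with the term. In white fat, IgG1 against NTB gave 5 by DESeq2 (Myh7, Myh1, Myl2, Tnni1 and Tnnt1), 1 with RLE factors and 1 with the 1 CPM filter (Myh7 each), 1 with only the 2 groups, and 1 with IgG1 library 3 and 3P10 library 3 left out (Myh1 each), a setting chosen after seeing the data. DESeq2 gave 1 in 3P10 against IgG1 (Myh2) and 2 in 3P10 against NTB (Myh2 and Myh1). Leaving out 1 library gave 0 to 4 in white fat IgG1 against NTB, with 4 without IgG1 library 1 and 3 without 3P10 library 3. In 3P10 against IgG1 it gave 0 to 1, with 1 (Myh2) without 3P10 library 1, where 2.21% of all genes were called. In white fat IgG1 against NTB, 15.2% of all genes were called without IgG1 library 1 and 8.75% without 3P10 library 3, beside 8.64% with all libraries. The share there was 9.38% with RLE factors, 9.80% with the 1 CPM filter, 6.63% with only the 2 groups and 16.2% without IgG1 library 3 and 3P10 library 3.

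Folds near 0 changed sign, none of them called either way. In muscle IgG1 against NTB, Tnnt3 was -0.018 with the replicate block, -0.19 with the term and -0.13 without the 4 libraries. In muscle 3P10 against IgG1, Myh7 was 0.12 with the block and 0.018 without the 4 libraries, Myl2 0.099 with the term and 0.29 without them, Tnnt3 0.21 and 0.23, and with the term Myh4 was 0.0065 and Tnni1 -0.017. In muscle 3P10 against NTB, Myh2 was 0.0024 with RLE factors and by DESeq2, 0.0019 with no filter and 0.017 without the 4, where Tnni2 was 0.049 and Tnnt3 0.10, and Tnnt3 was 0.025 with the term. In white fat IgG1 against NTB, Tnni2 was 0.0011 with RLE factors and 0.0013 by DESeq2. Without the 4 white fat libraries numbered 14 or above, Myh4 was 0.030, Mylpf 0.18, Tnni2 0.15 and Tnnt3 0.14, and Myh4 was -0.016 in 3P10 against NTB. Without IgG1 library 3 and 3P10 library 3, Mylpf was 0.032, Tnni2 0.058 and Tnnt3 0.043. The cause was not tested.

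Leaving out 1 library at a time also moved folds across 0. In muscle IgG1 against NTB the ranges were -0.017 to 0.20 for Myh4, -0.049 to 0.51 for Myl2, -0.40 to 0.33 for Tnni2, -0.20 to 0.37 for Tnnt1 and -0.25 to 0.37 for Tnnt3. In muscle 3P10 against IgG1 they were -0.25 to 0.18 for Myh7, -0.17 to 0.028 for Myh4, -0.29 to 0.23 for Myl2, -0.033 to 0.50 for Mylpf, -0.078 to 0.24 for Tnni1, -0.27 to 0.30 for Tnni2, -0.15 to 0.41 for Tnnt1 and -0.26 to 0.22 for Tnnt3. In muscle 3P10 against NTB they were -0.21 to 0.21 for Myh2, -0.075 to 0.14 for Myh4, -0.60 to 0.18 for Mylpf, -0.43 to 0.40 for Tnni2 and -0.25 to 0.35 for Tnnt3. In white fat they were -0.33 to 0.15 for Mylpf, -0.20 to 0.11 for Tnni2 and -0.23 to 0.090 for Tnnt3 in IgG1 against NTB, and -0.11 to 0.28 for Myh4 in 3P10 against NTB. In white fat 3P10 against IgG1, Myh7 ran from -2.05 to 0.37 (-1.64 with all libraries) and Tnni1 from -1.43 to 1.27 (-0.70). Myl2 there ran from -1.52 to 0.78 (-0.92), Tnnt1 from -1.09 to 0.45 (-0.43) and Myh1 from -0.020 to 0.90 (0.64). In brown fat 3P10 against IgG1 the ranges crossed 0 for every tested member except Myh4 (-1.05 to -0.028).

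Casq1, Myoz3 and Mylk2 kept their calls in muscle IgG1 against NTB in every setting, while list counts moved. Fast partners called were 3 of 14, against 7 by DESeq2, 10 with the term and 4 without the 4 libraries. The term also called 1 slow partner, 3 shared sarcomere genes, 2 developmental or cardiac genes and 5 regulators, and without the 4 libraries these were 2, 2, 0 and 2. Hdac5 lost its call with the replicate block (0.53, adjusted p = 0.0522), with only the 2 groups (adjusted p = 0.0511) and without IgG1 library 4, NTB library 1 or NTB library 2. In muscle 3P10 against IgG1, DESeq2 called Casq1, Myoz3 and Hdac5 (-0.39, adjusted p = 0.0492), and edgeR called Casq1 and Myoz3 with the term or without IgG1 library 1, and Casq1 without NTB library 3. The replicate block left 0 members called in every comparison. Libraries with the same replicate number in different groups showed no constant tie (r from -0.651 to 0.613 over pairs). Whether the replicate numbers pair libraries is not given. Muscle and white fat libraries of the same group and replicate carry the same title number, and whether they share an animal is not given. Depth limits brown fat most, where 3 counts are 1.24 to 3.63 CPM.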
